A study of Mus musculus with 16 samples.

Results

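The mouse mitochondrial chromosome carries 37 genes, of 54532 rows in the deposited table, and every row placed on chromosome MT was taken. They comprise 13 protein-coding genes (mRNAs), 2 ribosomal RNA (rRNA) genes and 22 transfer RNA (tRNA) genes. Their RNA was measured in 16 bulk libraries of end-stage subcutaneous tumours grown from B16F10, a mouse melanoma line, in C57BL/6J mice of both sexes that were 8 weeks old. The tumour cells were BdP, a Pros1-deficient derivative that another label calls a knockdown, or wild type (WT), and the hosts of both kinds of tumour were otherwise the same. The 4 groups of 4 libraries were BdP tumours under cisplatin, BdP tumours under PBS, WT tumours under cisplatin and WT tumours under PBS. Cisplatin, a platinum drug that crosslinks DNA, was injected into the abdomen at 5 mg/kg once a day on days 1 to 3 and 7 to 9 of the experiment, beginning 8 days after implantation, and PBS followed the same schedule. The labels do not say whether BdP is 1 clone, and they do not say which tumours shared a litter, day or batch, so the spread between replicates may be partly technical. The tumours hold host cells as well as melanoma cells, and in bulk RNA fewer cells of a type and less RNA per cell cannot be told apart.

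Mitochondrial DNA is transcribed from both strands into long precursors, from which the tRNAs are cut out to release the mRNAs and rRNAs between them. The proteins are core subunits of respiratory complexes I, III and IV and of ATP synthase, and are translated by mitochondrial ribosomes built on the organelle's own rRNAs. Fragments of mitochondrial DNA have also been copied into the nuclear chromosomes, where they are annotated as pseudogenes with nearly the same sequence.

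One such nuclear stretch bears on how the members were counted. On chromosome 1 (GRCm38, minus strand, chr1:24611535-24616197, 4663 bases) 7 annotated pseudogenes follow the order of the mitochondrial genes from the end of mt-Co1 to the start of mt-Nd4. In an alignment of the reference transcripts 5 of the 7 were identical to their mitochondrial gene over the aligned length. Gm28661 matched 681 of the 684 bases of mt-Co2, Gm10925 matched 678 of 681 bases of mt-Atp6 and the last 43 bases of mt-Atp8, Gm28437 matched 783 of 784 bases of mt-Co3, Gm10222 matched 294 of 297 bases of mt-Nd4l, and Gm28439 matched the first 876 of 1378 bases of mt-Nd4. The other two each held 1 mismatch. The starts of mt-Co2 and its copy are printed to show that no base tells them apart, and the stretches of mt-Nd3 and mt-Co1 to show the single base, in capitals, that does. Positions count from 1 at the 5′ end of the mitochondrial gene, all sequences run 5′ to 3′ and come from the GENCODE M21 transcripts on GRCm38. The copy of mt-Nd3 carries T3C and the copy of mt-Co1 carries A1066T.
mt-Co2, chrMT:7013-7072, plus strand: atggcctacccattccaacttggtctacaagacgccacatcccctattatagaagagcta
Gm28661, chr1:24615506-24615565, minus strand: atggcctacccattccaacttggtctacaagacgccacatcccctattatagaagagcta
mt-Nd3, chrMT:9459-9491, plus strand: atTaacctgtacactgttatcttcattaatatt
Gm28438, chr1:24613087-24613119, minus strand: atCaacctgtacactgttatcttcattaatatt
mt-Co1, chrMT:6390-6423, plus strand: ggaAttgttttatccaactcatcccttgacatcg
Gm29216, chr1:24616155-24616188, minus strand: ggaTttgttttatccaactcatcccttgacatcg
How the authors' counting treated reads that fit several places, and whether it used strand, is not given in the sources used here. The 6 mRNA genes from mt-Co2 to mt-Nd4l are therefore given apart from the other 7 below, and their levels are uncertain. mt-Atp8 was placed among the 6 for its position, since only its last 43 bases matched. Among the 7, mt-Nd4 and mt-Co1 are copied in part, so their levels are uncertain in part. Lower-identity copies, between 92.4% and 97.6% identical over at least 49.1% of the gene, were found for mt-Co1, mt-Co2, mt-Nd2, mt-Cytb, mt-Nd5 and mt-Nd6, and none at 90% or more for mt-Nd1 or the rRNAs. Part of a transcript of the nuclear gene Cep295 also matched 62 of the 75 bases of the tRNA gene mt-Tl1, at 93.5% identity.

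Between 10051843 and 27055771 reads per library (median 21119708.5) were assigned to genes. Pros1, the gene of protein S, marked the genotypes as labelled, at 1.73 to 2.52 FPKM (fragments per kilobase of gene, scaled for depth between libraries) in BdP cisplatin tumours and 1.24 to 1.61 FPKM in BdP PBS tumours, against 7.78 to 11.5 FPKM in WT cisplatin tumours and 4.79 to 9.77 FPKM in WT PBS tumours. Melanoma markers were present in every library, at a summed 4648 to 8596 FPKM over 7 genes.

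The MT genes took 2.53%, 2.99%, 3.74% and 3.46% of reads in BdP cisplatin libraries 1 to 4 and 2.60%, 3.53%, 3.62% and 5.06% in BdP PBS libraries 1 to 4. In WT cisplatin libraries 1 to 4 they took 2.05%, 2.37%, 12.2% and 21.7%, and in WT PBS libraries 1 to 4 they took 76.9%, 2.93%, 3.74% and 2.03%. All 3 libraries above 10% were WT, namely WT cisplatin 3, WT cisplatin 4 and WT PBS 1, and the other 13 lay between 2.03% and 5.06% with a median of 2.99%. The 95% Wilson interval of the WT PBS 1 share was 76.87% to 76.92% and covers counting error only. Reads from all other chromosomes numbered 2322202 in that library. The values below are therefore given with and without these 3 libraries. Since the 3 were set apart for their high MT share and are all WT, leaving them out lowers the WT levels by construction. This shifts BdP against WT upward, so values without the 3 libraries are a description.

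**Figure D1:**
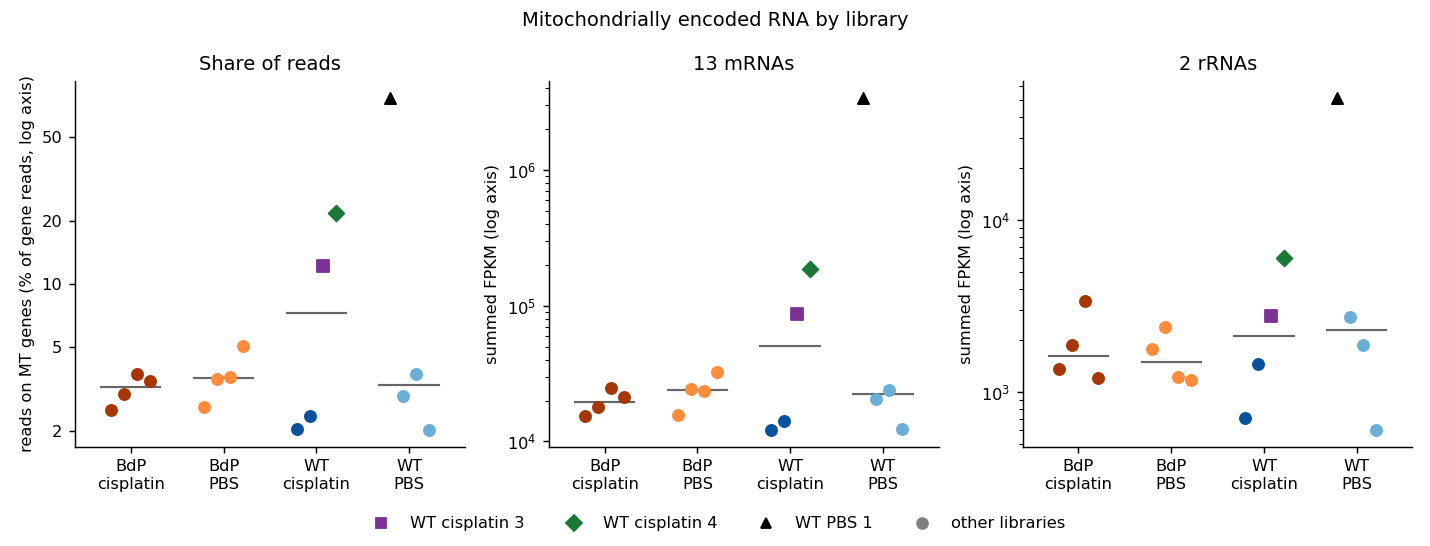
Share of all assigned reads (percent, log axis) that fell on the 37 MT genes, and summed FPKM (log axes) of the 13 mRNAs and of the 2 rRNAs, with 1 point per library and a line at each group's median. WT cisplatin 3, WT cisplatin 4 and WT PBS 1 stand at 12.2%, 21.7% and 76.9% of reads, above the other 13 libraries at 2.03% to 5.06%, whose summed mRNA levels run from 12129 to 32573 FPKM.

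The highest MT gene was mt-Co1 (ENSMUSG00000064351, chrMT:5328-6872, plus strand), the catalytic subunit of cytochrome c oxidase, or complex IV. It had 5952, 6690, 9423 and 8401 FPKM in BdP cisplatin tumours, 6331, 9634, 8521 and 11978 FPKM in BdP PBS tumours, 4974, 5964, 36603 and 63690 FPKM in WT cisplatin tumours and 874777, 8271, 10243 and 4723 FPKM in WT PBS tumours. Apart from the 3 WT libraries the groups overlapped, and the highest of the 13 was 2.54 times the lowest. Relative to the median of the 13, WT cisplatin 3 was 4.43-fold, WT cisplatin 4 was 7.70-fold and WT PBS 1 was 106-fold higher. The deposited values were scaled between libraries by size factors and not by the read total, so these folds are not ratios of read shares.

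The other complex IV mRNAs ran far lower and spread more. For mt-Co2, the subunit that receives electrons from cytochrome c, the values were 82.4, 169, 299 and 146 FPKM in BdP cisplatin tumours, 67.9, 150, 246 and 449 FPKM in BdP PBS tumours, 69.5, 194, 2079 and 9931 FPKM in WT cisplatin tumours and 229203, 241, 295 and 77.0 FPKM in WT PBS tumours. For mt-Co3, the remaining mitochondrially encoded subunit, they were 47.2, 53.2, 476 and 181 FPKM in BdP cisplatin tumours, 44.7, 149, 82.9 and 109 FPKM in BdP PBS tumours, 45.3, 61.2, 1578 and 3646 FPKM in WT cisplatin tumours and 189257, 57.9, 113 and 73.9 FPKM in WT PBS tumours. Both genes lie in the stretch with a nuclear copy, and over the 13 libraries the highest value was 6.62 times the lowest for mt-Co2 and 10.6 times for mt-Co3.

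Complex I, which takes electrons from NADH, has 7 subunits encoded on the MT chromosome. mt-Nd1 (chrMT:2751-3707, plus strand), for which no nuclear copy was found, had 2092, 2380, 3092 and 2723 FPKM in BdP cisplatin tumours, 1950, 3061, 2995 and 3969 FPKM in BdP PBS tumours, 1677, 1698, 12320 and 24859 FPKM in WT cisplatin tumours and 428084, 2655, 2804 and 1925 FPKM in WT PBS tumours. mt-Nd6 (chrMT:13552-14070), the only mRNA on the minus strand, had 556, 703, 850 and 671 FPKM in BdP cisplatin tumours, 618, 727, 630 and 836 FPKM in BdP PBS tumours, 422, 430, 1928 and 5219 FPKM in WT cisplatin tumours and 119198, 643, 702 and 393 FPKM in WT PBS tumours. In both genes the same 3 libraries stood above all others, and in the other 13 the 2 WT cisplatin libraries lay among the lowest. Across those 13 libraries mt-Nd2 ran from 748 to 2212 FPKM, mt-Nd4 from 704 to 2351 FPKM and mt-Nd5 from 587 to 1333 FPKM. mt-Nd3 and mt-Nd4l, both short genes with a nuclear copy, ran from 11.6 to 40.8 and from 7.04 to 22.7 FPKM. mt-Nd6 and mt-Nd5 share 14 bases on opposite strands. Unless strand was used, RNA of either strand counts for mt-Nd6 over its whole length, and not at the shared end alone. The same holds for the tRNA genes on the minus strand.

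Complex III has 1 mitochondrially encoded subunit, cytochrome b. Its gene mt-Cytb (chrMT:14145-15288, plus strand) was the second highest mRNA, with 3804, 4447, 5879 and 5110 FPKM in BdP cisplatin tumours, 3399, 5966, 6018 and 8715 FPKM in BdP PBS tumours, 2667, 3141, 18283 and 39311 FPKM in WT cisplatin tumours and 741600, 5045, 5314 and 2849 FPKM in WT PBS tumours. The order of the libraries was much as for mt-Co1, with BdP PBS 4 the highest of the 13 in both.

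ATP synthase has 2 mitochondrially encoded subunits, and their genes overlap by 43 bases. mt-Atp6, which forms part of the proton path, had 199, 279, 618 and 444 FPKM in BdP cisplatin tumours, 191, 236, 1195 and 570 FPKM in BdP PBS tumours, 109, 349, 1748 and 11123 FPKM in WT cisplatin tumours and 223429, 126, 452 and 247 FPKM in WT PBS tumours. mt-Atp8 was the lowest mRNA, at 0.898 to 8.83 FPKM in the 13 libraries, 41.4 FPKM in WT cisplatin 3, 75.6 FPKM in WT cisplatin 4 and 2879 FPKM in WT PBS 1. A read that lies across the shared 43 bases fits both genes, so the split between them is uncertain.

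**Figure D2:**
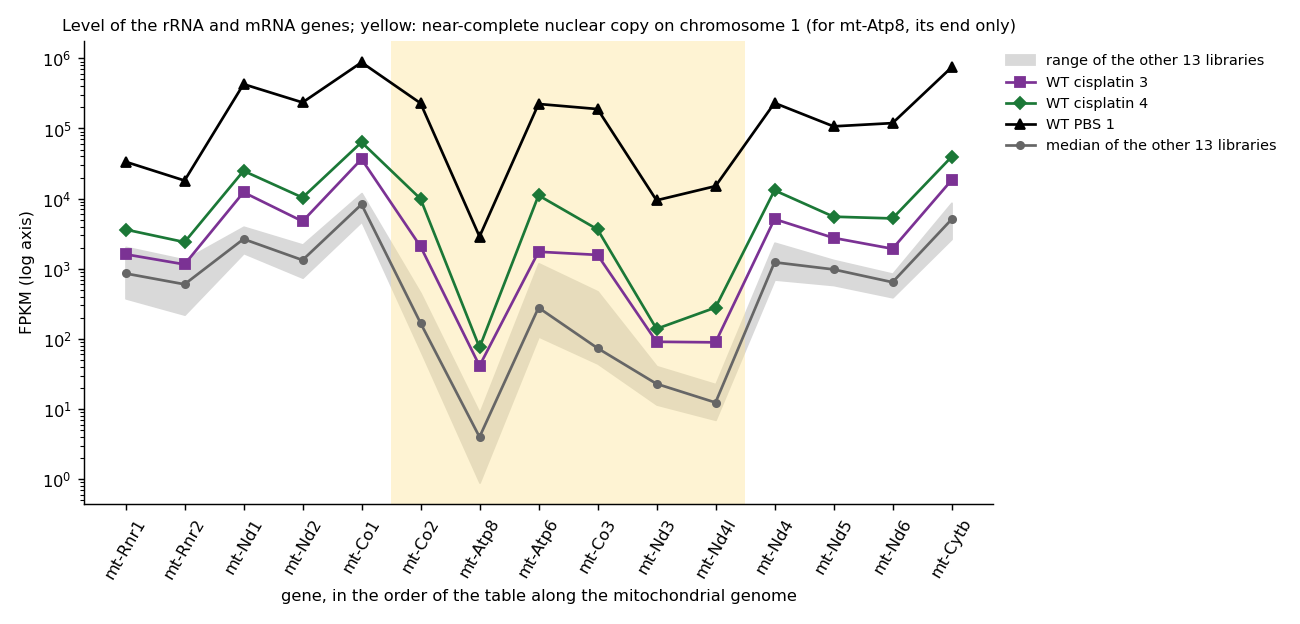
FPKM (log axis) of the 15 rRNA and mRNA genes in gene order, with lines for WT cisplatin 3, WT cisplatin 4, WT PBS 1 and the median of the other 13 libraries, and grey for the range of those 13. The yellow band marks the 6 mRNAs from mt-Co2 to mt-Nd4l, where the log2 level had an SD of 0.49 to 0.98 over the 13 libraries, against 0.35 to 0.51 for the other 7 mRNAs.

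The rRNAs followed a different scale. mt-Rnr1, the small-subunit 12S rRNA (chrMT:70-1024, plus strand), had 810, 970, 2048 and 652 FPKM in BdP cisplatin tumours, 1060, 1364, 710 and 782 FPKM in BdP PBS tumours, 440, 858, 1609 and 3628 FPKM in WT cisplatin tumours and 33535, 1528, 1252 and 380 FPKM in WT PBS tumours. mt-Rnr2, the large-subunit 16S rRNA, had 559, 906, 1350 and 564 FPKM in BdP cisplatin tumours, 717, 1038, 517 and 387 FPKM in BdP PBS tumours, 268, 601, 1155 and 2399 FPKM in WT cisplatin tumours and 18099, 1199, 628 and 222 FPKM in WT PBS tumours. WT cisplatin 3 lay inside the range of the 13 libraries for both rRNAs, whereas WT cisplatin 4 and WT PBS 1 lay above it. The rRNAs varied more over the 13 libraries than the 7 mRNAs outside mt-Co2 to mt-Nd4l, with an SD of the log2 level of 0.69 and 0.78, against 0.35 to 0.51.

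Of the 22 tRNA genes, 18 reached 1 FPKM in at least 4 libraries, 7 had reads in all 16, and mt-Tf had none in any. The genes are only 59 to 75 bases long and together held 0.0930% to 0.189% of MT reads in the 13 libraries. Whole tRNA genes are printed for the highest of them, mt-Tp, for mt-Tl1, the 1 tRNA whose groups under PBS did not overlap once the 3 libraries were left out, and for the 1 with no read, mt-Tf.
mt-Tp, chrMT:15356-15422, minus strand: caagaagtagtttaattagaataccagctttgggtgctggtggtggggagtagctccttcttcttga
mt-Tl1, chrMT:2676-2750, plus strand: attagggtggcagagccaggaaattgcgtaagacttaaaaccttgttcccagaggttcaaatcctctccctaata
mt-Tf, chrMT:1-68, plus strand: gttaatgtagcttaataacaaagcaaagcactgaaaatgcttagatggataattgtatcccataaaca
mt-Tp, the proline tRNA on the minus strand, had 251, 299, 419 and 342 FPKM in BdP cisplatin tumours, 176, 400, 300 and 292 FPKM in BdP PBS tumours, 288, 358, 1152 and 2121 FPKM in WT cisplatin tumours and 23690, 272, 288 and 243 FPKM in WT PBS tumours. mt-Tl1, a leucine tRNA directly after mt-Rnr2, had 59.3, 80.4, 47.8 and 92.5 FPKM in BdP cisplatin tumours, 69.7, 86.6, 87.5 and 62.6 FPKM in BdP PBS tumours, 40.4, 58.2, 118 and 187 FPKM in WT cisplatin tumours and 3564, 61.9, 43.8 and 38.9 FPKM in WT PBS tumours. mt-Tc, the cysteine tRNA, ran from 39.9 to 136 FPKM in the 13 libraries, with 54.8 FPKM in WT cisplatin 3, 168 FPKM in WT cisplatin 4 and 1350 FPKM in WT PBS 1. All 3 of these tRNAs were highest in WT PBS 1, and WT cisplatin 3 stood above the 13 for mt-Tp and mt-Tl1 but not for mt-Tc.

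The remaining tRNAs were sparse. In the 13 libraries mt-Tw, mt-Tn, mt-Ty and mt-Te ran between 4.94 and 46.6 FPKM with reads in each library, and mt-Th, mt-Ts2 and mt-Tl2 were listed at 0 in at least 1 of them and reached 48.2 FPKM. mt-Tv, mt-Ti, mt-Tq, mt-Tm, mt-Ta, mt-Ts1, mt-Tr and mt-Tt stayed at or under 7.19 FPKM there. The 5 tRNA genes from the end of mt-Co1 to mt-Nd4l (mt-Ts1, mt-Td, mt-Tk, mt-Tg and mt-Tr), which lie in the span of the chromosome 1 copies, held 22 reads in all over the 13 libraries, against 11864 for the other 17 tRNA genes. Of those 17, 5 also had under 30 reads each, so a low count was not particular to that span. In WT PBS 1 the 5 genes held 157 reads, 123 of them on mt-Ts1.

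The 3 high libraries did not stand above the others by the same fold in all MT genes. The summed mRNA FPKM was 4.23-fold, 9.06-fold and 165-fold the median of the 13 libraries in WT cisplatin 3, WT cisplatin 4 and WT PBS 1, while the summed rRNA FPKM was 1.89-fold, 4.13-fold and 35.4-fold. For the 7 mRNAs outside mt-Co2 to mt-Nd4l the median fold was 3.62 (2.81 to 4.64) in WT cisplatin 3, 7.79 (5.64 to 10.6) in WT cisplatin 4 and 161 (106 to 187) in WT PBS 1. For the 6 mRNAs from mt-Co2 to mt-Nd4l it was 8.78 (3.97 to 21.4), 31.2 (6.07 to 58.9) and 1008 (413 to 2562) in the same libraries. Within each of the 3 libraries the rRNAs thus had the smallest folds of these classes, and in WT PBS 1 the 3 classes did not overlap.

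The make-up of MT reads also differed in the 3 high libraries, though not in every class and library. The 6 mRNAs from mt-Co2 to mt-Nd4l took 3.42%, 7.44% and 11.8% of MT reads in WT cisplatin 3, WT cisplatin 4 and WT PBS 1, against 0.987% to 3.41% in the other 13. The rRNAs took 2.93%, 3.11% and 1.53% in those 3 libraries, against 3.17% to 11.5% in the 13. The tRNAs took 0.0934%, 0.0908% and 0.0588%, against 0.0930% to 0.189%, and mt-Co1 alone took 49.3%, 42.1% and 34.2%, against 40.8% to 47.5%. For mt-Nd6, annotated on the opposite strand, the FPKM was 0.70, 0.944 and 1.11 times that of mt-Nd5 in the 3 libraries and 0.622 to 0.730 times in the 13. Thus WT cisplatin 4 and WT PBS 1 lay above the 13 for this ratio, and WT cisplatin 3 lay among them. Since strand use is not given, the ratio is not a comparison of the strands. The 3 libraries were singled out by the amount of MT reads, so these shares are given as a description.

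**Figure D3:**
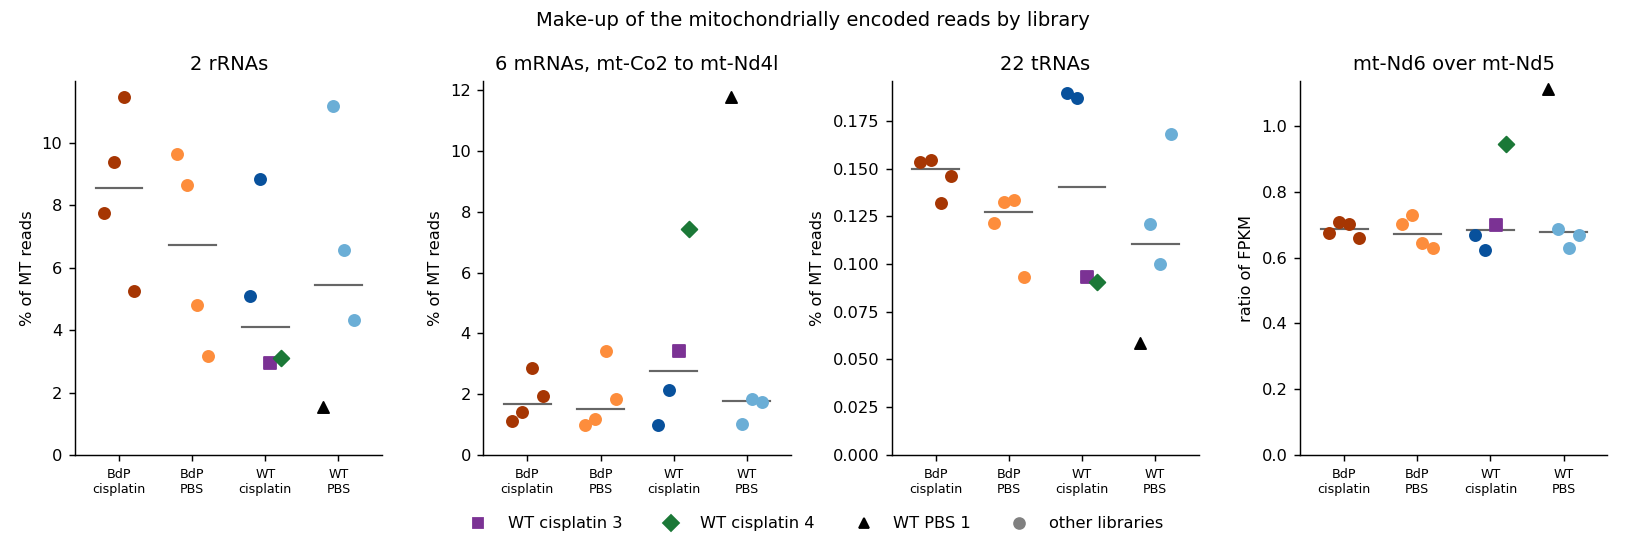
Share of MT reads (percent) held by the rRNAs, by the 6 mRNAs from mt-Co2 to mt-Nd4l and by the tRNAs, and the FPKM ratio of mt-Nd6 to mt-Nd5, with 1 point per library and a line at each group's median. WT cisplatin 3, WT cisplatin 4 and WT PBS 1 hold 3.42%, 7.44% and 11.8% of MT reads in the 6 mRNAs, above the other 13, and 2.93%, 3.11% and 1.53% in the rRNAs, below them.

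Reads on the nuclear copies were high in the same libraries. Gm28661, identical to mt-Co2 over 681 bases, had 4207, 24920 and 119758 reads in WT cisplatin 3, WT cisplatin 4 and WT PBS 1, against 622 to 2093 in the other 13, while mt-Co2 itself had 29472, 79775 and 306201 reads, against 1320 to 8708. For mt-Nd3 the copy held as many reads as the gene or more in 9 of the 13 libraries, with 102 to 337 reads on mt-Nd3 and 138 to 363 on Gm28438. Of the joint reads of mt-Nd4 and its partial copy, 98.7% to 99.1% were on mt-Nd4 in the 13 libraries, and 95.6% in WT PBS 1. For mt-Co1, whose copy covers its last 483 bases, the share on the gene was 99.6% to 99.8% in the 13 and 98.8% in WT PBS 1. Reads of mt-Nd4 and mt-Co1 include those on bases outside the copies, so their shares are not comparable with the counts for mt-Nd3. Whether these copies are transcribed, or receive reads of the mitochondrial genes, was not tested.

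**Figure D4:**
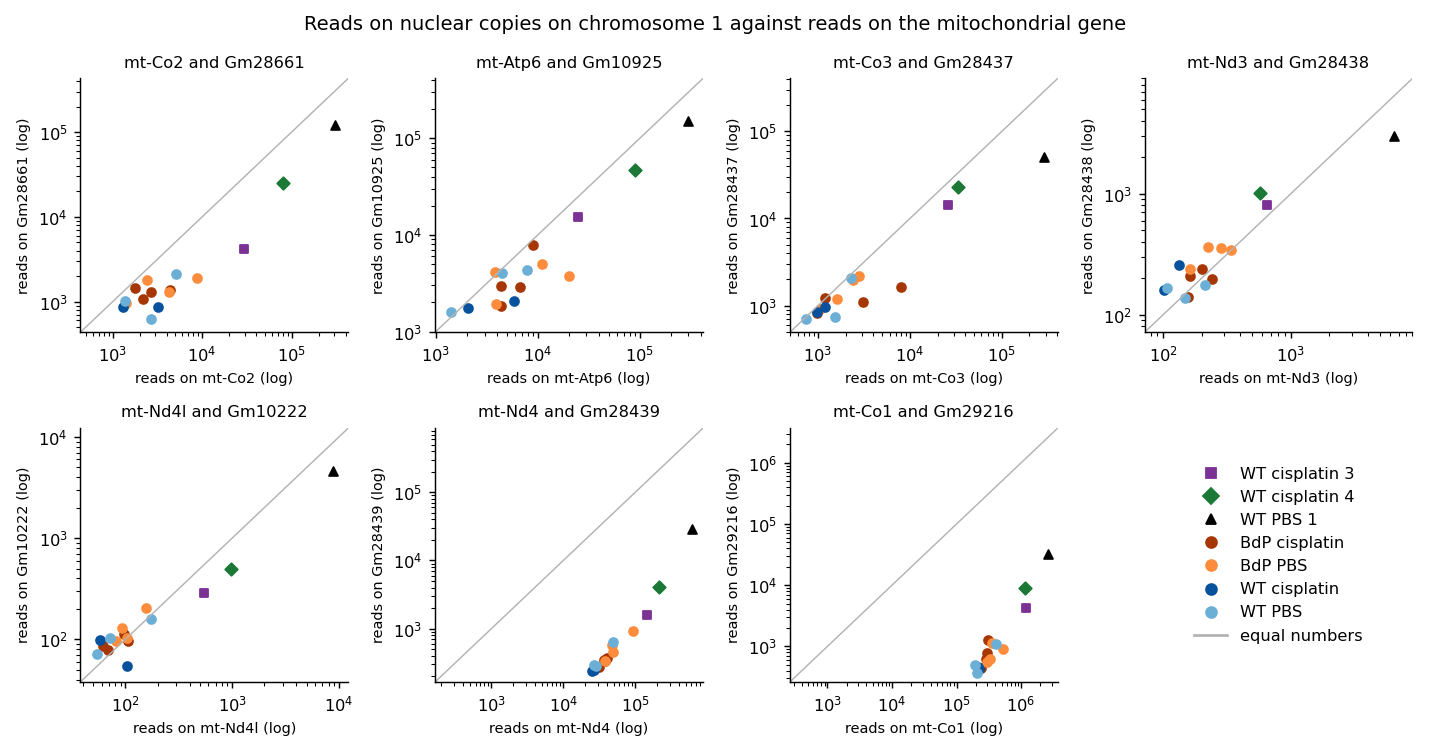
Reads on each MT gene (horizontal, log axis) against reads on its chromosome 1 copy (vertical, log axis), 1 point per library, with a line at equal numbers. WT cisplatin 3, WT cisplatin 4 and WT PBS 1 are the highest on both axes in each panel, and for mt-Co2 and Gm28661 WT PBS 1 lies at 306201 and 119758 reads.

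Markers of other cell types were read in the 3 libraries beside these levels. The 4 neutrophil markers summed to 52.0, 113 and 50.4 FPKM in WT cisplatin 3, WT cisplatin 4 and WT PBS 1, against 10.4 to 48.6 FPKM in the 13, with none at 0 in the 3. Skeletal muscle markers, of a mitochondria-rich tissue, summed to 1.84, 2.20 and 3.54 FPKM, against 0.935 to 2.68, and 6 of 8 were at 0 in WT PBS 1. The 3 heart and slow muscle markers were at 0 in WT cisplatin 3 and WT PBS 1 and were all above 0 in WT cisplatin 4, with a sum of 0.291 FPKM, against 0 to 0.167 FPKM in the 13. Skin keratinocyte markers summed to 0.135, 0.185 and 2.39 FPKM in WT cisplatin 3, WT cisplatin 4 and WT PBS 1, against 0.0329 to 0.530 FPKM, and none of the 5 was at 0 in WT PBS 1. Immediate early genes, which respond to handling, summed to 850 and 801 FPKM in WT cisplatin 3 and WT cisplatin 4 and to 112 FPKM in WT PBS 1, against 526 to 1596 FPKM. The melanoma sum was 5690, 5894 and 8596 FPKM, against 4648 to 6747. B and plasma cell markers summed to 1.17 FPKM in WT PBS 1, with 3 of 5 at 0, against 2.98 to 1230 FPKM. In WT PBS 1, 3 reads on a gene of 1 kb equal 1.54 FPKM, against 0.0940 to 0.255 FPKM in the other libraries. Its sums of skeletal muscle, keratinocyte and B and plasma cell markers are near that limit. The sums of macrophage, T cell, fibroblast, endothelial, erythroid and adipocyte markers lay within the range of the 13 in all 3 libraries. The part of these cell types, of handling or of RNA quality in the MT levels was not tested.

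Between BdP and WT tumours under PBS, which asks what loss of Pros1 in the tumour cells does without drug, no MT gene passed the test. Tests used limma on log2(FPKM + 1) across all genes that reached 1 FPKM in 4 or more libraries, 33 MT genes among them, and a Benjamini-Hochberg adjusted p below 0.05. With all 16 libraries 0 of 33 MT genes were called, against 0.99% of all 12319 genes (122 genes), and 0 had an unadjusted p below 0.05, against 19.3% of all genes. The median log2 fold change was -1.61 over the 13 mRNAs (range -2.64 to -1.41), -1.16 over the rRNAs and -1.11 over 18 tRNAs, against 0.01 over all genes. Without WT PBS 1 alone the mRNA median was 0.31. Without the 3 libraries the medians were 0.31, 0.12 and 0.37 (14 tRNAs), 12 of the 13 mRNAs were above 0, and again 0 of 29 MT genes tested were called, against 0.413% of 12092 genes. There 1 MT gene (mt-Tl1) had an unadjusted p below 0.05, against 14.8% of all genes. For mt-Co1 the log2 fold change was -1.45 ± 1.29 (SE, limma, Benjamini-Hochberg adjusted p = 0.531), and 0.27 ± 0.31 without the 3 libraries (adjusted p = 0.709). For mt-Tl1 the 4 BdP PBS values all lay above the 3 remaining WT PBS values, a pattern shared by 4.7% of the genes tested, and its adjusted p without the 3 libraries was 0.238 (limma, Benjamini-Hochberg). WT PBS 1 was left out for its high MT share, which raises all these BdP against WT values by construction.

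Between BdP and WT tumours under cisplatin the direction also turned with the 3 libraries. With all 16, 0 of 33 MT genes were called, against 1.07% of all genes (132 genes), and 0 had an unadjusted p below 0.05, against 13.8% of all genes. The medians were -1.11 for the 13 mRNAs (range -2.21 to -0.68), -0.16 for the rRNAs and -0.41 for the tRNAs. Without WT cisplatin 4 alone the mRNA median was -0.34. Without WT cisplatin 3, WT cisplatin 4 and WT PBS 1 the medians were 0.60, 0.85 and 0.36, all 13 mRNAs were above 0, and 0 of 29 MT genes were called, against 0.364% of all genes. There mt-Nd6 (log2 fold change 0.69 ± 0.24 SE), mt-Nd5 (0.60 ± 0.25) and mt-Tt, the threonine tRNA (2.03 ± 0.54), had an unadjusted p below 0.05, with limma Benjamini-Hochberg adjusted p of 0.276, 0.337 and 0.172. These are 3 of 29 MT genes, a share no higher than the 13.6% of all genes with an unadjusted p below 0.05. In this set mt-Tt passed the filter on low values only through the BdP cisplatin libraries, where it was high. Its p is therefore no test. In 7 of the 13 mRNAs (mt-Nd1, mt-Nd2, mt-Nd3, mt-Nd4, mt-Nd5, mt-Nd6 and mt-Cytb) and in mt-Tt the 4 BdP cisplatin values all lay above the 2 WT cisplatin values that remained, and 15.4% of all genes tested did so. The 7 mRNAs come from 1 chromosome and largely share their precursors, so they do not count as 7 separate observations. WT cisplatin 3 and WT cisplatin 4 were left out for their high MT share. That raises the fold changes and the non-overlap without the 3 libraries by construction. mt-Tt had 2.34, 3.89, 2.82 and 3.41 FPKM in BdP cisplatin tumours, 0, 0, 2.99 and 0 FPKM in BdP PBS tumours, 0, 0, 4.32 and 7.63 FPKM in WT cisplatin tumours and 222, 0, 1.17 and 1.70 FPKM in WT PBS tumours, a level of few reads outside the 3 libraries.

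Cisplatin against PBS in WT tumours, the response to the drug with Pros1 intact, gave 0 of 33 MT genes called with all 16 libraries, against 0.00812% of all genes (1 gene), and 0 at an unadjusted p below 0.05, against 7.74% of all genes. The medians were -0.77 for the 13 mRNAs, with SEs of 1.23 to 2.14, -0.78 for the rRNAs and -0.74 for the tRNAs. Without WT PBS 1 alone the mRNA median was 1.16, since WT cisplatin 3 and WT cisplatin 4 remained, and without WT PBS 4 alone it was -1.60. Without all 3 libraries it was -0.49, with 0 MT genes called, against 0% of all genes, and 0 at an unadjusted p below 0.05, against 3.45% of all genes. mt-Nd1 was the 1 MT gene whose remaining groups did not overlap. It had 1677 and 1698 FPKM in WT cisplatin tumours, against 2655, 2804 and 1925 FPKM in WT PBS tumours. Among all genes tested 6.76% were lower in that way. Only 2 WT cisplatin and 3 WT PBS libraries remained. The 3 libraries were left out for their high MT share, which lowers both groups by construction. The median and the non-overlap without them are therefore a description.

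Cisplatin against PBS in BdP tumours involves none of the 3 libraries. The medians were -0.23 for the 13 mRNAs (range -0.41 to 0.46), 0.22 for the rRNAs and 0.09 for the tRNAs, and 0 of 33 MT genes were called, against 0% of all genes, with 0 at an unadjusted p below 0.05, against 4.4% of all genes. When the 3 WT libraries were left out of the shared estimate of spread, 0 MT genes were called, against 0.00827% of all genes, and 1 (mt-Tt, 1.53 ± 0.44) had an unadjusted p below 0.05, against 6.85% of all genes. In that fit mt-Tt passed the filter on low values only through the BdP cisplatin libraries, so its p is no test. For mt-Co1 the log2 fold change was then -0.25 ± 0.29 (SE, limma, Benjamini-Hochberg adjusted p = 0.940).

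The interaction, which sets the cisplatin effect in BdP tumours against its counterpart in WT tumours (BdP minus WT), also called 0 of 33 MT genes, against 0% of all genes, with 0 at an unadjusted p below 0.05, against 5.61% of all genes. The mRNA median was 0.51 with all 16 libraries, -1.43 without WT PBS 1 and 1.38 without WT cisplatin 4. Without the 3 libraries it was 0.29, with 0 MT genes called, against 0% of all genes, and 1 (mt-Tt) at an unadjusted p below 0.05, against 2.29% of all genes. Here too mt-Tt had passed the filter only through the BdP cisplatin libraries, so its p is no test. Leaving out the 3 libraries for their high MT share lowers both WT groups by construction, so these values are a description. The comparisons share groups, so their values are not independent of each other. A contrast that misses the threshold at such SEs does not show that MT levels were alike.

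**Figure D5:**
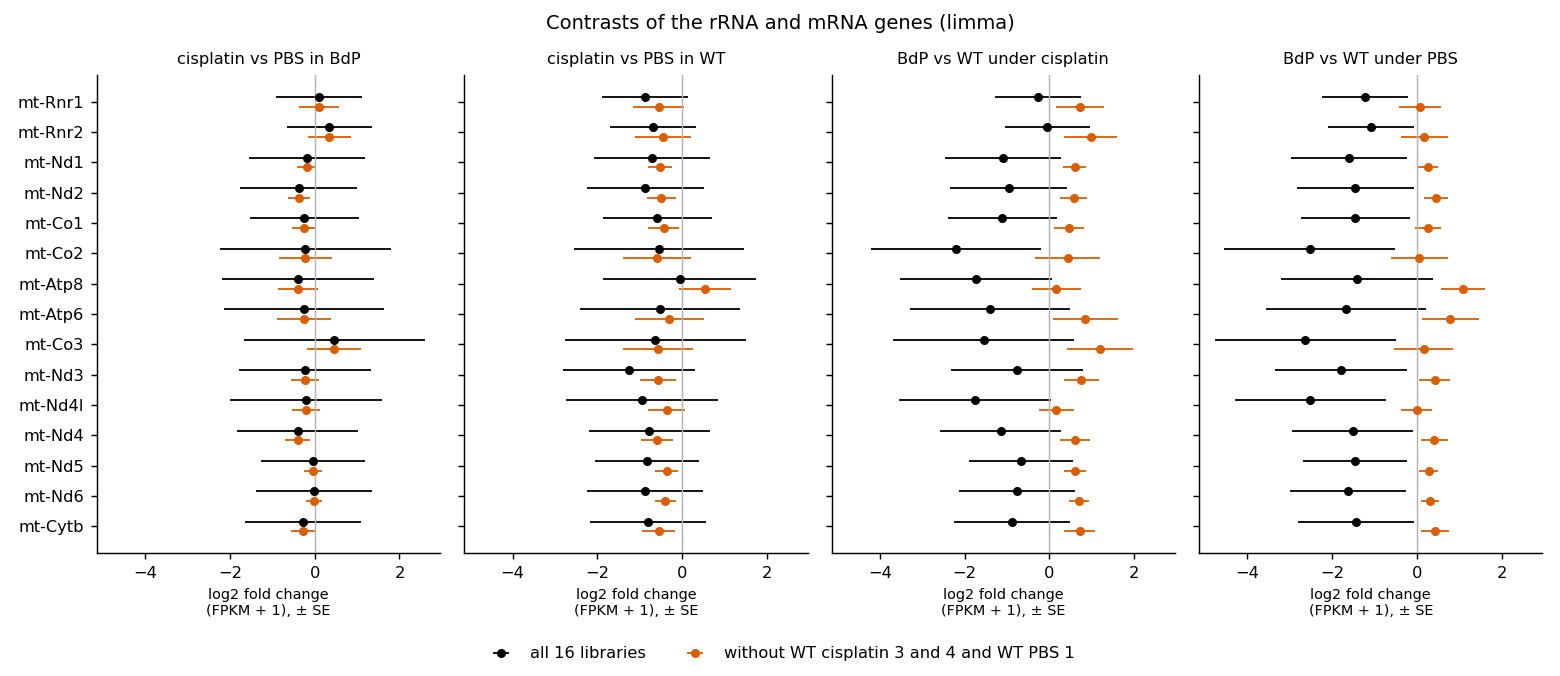
Log2 fold change of FPKM + 1 with its limma SE for the 15 rRNA and mRNA genes in the 4 two-group contrasts, with all 16 libraries (black) and without WT cisplatin 3, WT cisplatin 4 and WT PBS 1 (orange). The median of the 13 mRNAs for BdP against WT is -1.61 with all libraries and 0.31 without the 3 under PBS, and -1.11 and 0.60 under cisplatin. The 3 are WT libraries set apart for their high MT share, so leaving them out raises these medians by construction.

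The nuclear partners of these genes showed little of the same spread. The mean log2(FPKM + 1) of the nuclear complex I subunits was 5.35, 5.34 and 6.03 in WT cisplatin 3, WT cisplatin 4 and WT PBS 1, against 5.17 to 5.73 in the 13, and that of nuclear complex IV subunits was 7.36, 7.32 and 7.83, against 7.14 to 7.81. For nuclear ATP synthase subunits it was 6.36, 6.39 and 7.11, against 6.16 to 6.78. WT cisplatin 3 and WT cisplatin 4 lay within the range of the 13 in these lists and WT PBS 1 lay above it. Complex II genes averaged 6.31, 6.28 and 6.75, against 6.32 to 6.78. Genes of mitochondrial content outside the respiratory chain averaged 5.792, 5.760 and 6.033, against 5.793 to 6.141. In both of these lists WT cisplatin 3 and WT cisplatin 4 lay slightly below the 13 and WT PBS 1 lay among them. The genes of mitochondrial DNA transcription, such as the polymerase Polrmt and Tfam, averaged 2.59, 2.74 and 2.90, inside 2.56 to 2.97.

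Of the nuclear mitochondrial lists only 3 genes passed the test in any contrast. Under PBS, 1 of 82 mitochondrial ribosomal protein genes fell, Mrpl9, to 17.3 ± 2.67 FPKM in BdP tumours, against 27.5 ± 6.04 FPKM in WT tumours (SD, n = 4 each; log2 fold change -0.62 ± 0.14 SE, limma adjusted p = 0.0483), and its adjusted p was 0.0994 without the 3 libraries. That 1 call of 82 is near the 0.99% called over all genes. Under cisplatin, 1 of 4 complex II genes rose, Sdhc, a membrane anchor of succinate dehydrogenase, which has no mitochondrially encoded subunit, to 68.8 ± 0.785 FPKM in BdP tumours, against 47.7 ± 5.02 FPKM in WT tumours (0.53 ± 0.12, limma adjusted p = 0.0423). Under cisplatin 1 of 20 genes of mitochondrial chaperones, proteases and stress response also rose, Afg3l2, a protease of the inner membrane, to 39.4 ± 3.65 FPKM in BdP tumours, against 25.8 ± 3.32 FPKM in WT tumours (0.60 ± 0.13, limma adjusted p = 0.0368). Neither passed without the 3 libraries, at limma adjusted p of 0.237 for Sdhc and 0.114 for Afg3l2. The share called over all genes in that contrast was 1.07% with all 16 libraries. The chromosomal positions of Mrpl9, Sdhc and Afg3l2 were not weighed, and no cause of their changes was tested. For BdP against WT under cisplatin without the 3 libraries, where the mRNA median of the MT chromosome was 0.60, the list medians were 0.00 for nuclear complex I (37 genes), 0.04 for complex III (9), 0.06 for complex IV (11), 0.11 for ATP synthase (17) and -0.09 for the mitochondrial ribosome (82), with 0 members called and 1, 0, 0, 1 and 6 members at an unadjusted p below 0.05 in those lists, against 13.6% of all genes. Under PBS without the 3 libraries, where that mRNA median was 0.31, they were -0.14 for complex I and between -0.13 and 0.00 for the other four. Leaving out WT libraries for their high MT share raises both mRNA medians by construction, so the lists are set beside them as a description.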

How the data were processed

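The deposited values were FPKM per gene. Per the submitters' processing notes, CASAVA, HISAT2 2.0.5 and featureCounts 1.5.0-p3 were used on GRCm38 (mm10), and per the labels' protocols the libraries were made with the NEBNext Ultra RNA kit from RNeasy Plus Mini RNA. Aligner settings, strand use and the handling of reads with several matches are not given in the sources used here. In every library FPKM multiplied by gene length came out whole for 100% of genes, within 0.1 read, on a scale that equals median-of-ratios size factors, so reads were recovered for shares and the FPKM were not rescaled. For a gene of 1 kb the limit that 3 reads set lay between 0.0940 and 0.255 FPKM in 15 libraries and at 1.54 FPKM in WT PBS 1, and it is higher for short genes such as tRNAs.

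Values were fitted as log2(FPKM + 1) in limma 3.58.1 (R 4.3.3), with 4 group means over 16 libraries, empirical Bayes with trend, and Benjamini-Hochberg adjustment over the 12319 genes that reached 1 FPKM in 4 or more libraries (12092 without the 3 libraries). The procedure was also run on simulated data with independent normal noise, with changes set only in the less variable genes. That run does not test the fit at the spread of the MT genes. Copies were found with blastn 2.17.0 among GENCODE M21 transcripts at 90% identity or more. Of 15 pseudogenes listed as copies, 5 had no such match and carry no result. All 37 MT rows were taken. mRNAs, rRNAs and the tRNAs that pass the filter were named, full statistics were kept to a few of them, and of the nuclear lists the called members were named. The members and lists were chosen with earlier results of these data known. No score over members was tested. Intervals are 95% Wilson.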

Additional observations from a re-analysis of the deposited data

Results flagged for a closer look

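In each group of 4 libraries the gap of the highest or lowest library to its nearest neighbour, divided by the range of the group, was set against Dixon's 95% critical value for 4 samples, for 19 measures, 76 group tests in all. It was exceeded 18 times. Chance flags about 1 in 20 groups, but that rate is no measure here for WT PBS 1, which makes up 17 of the 18 and had been set apart for its MT level. Those 17 restate that choice in 1 library and are given as a description.

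WT PBS 1 was apart for both rRNAs, with mt-Rnr1 at 33535 FPKM and mt-Rnr2 at 18099 FPKM. Among complex I mRNAs it stood at 428084 FPKM for mt-Nd1, 234811 for mt-Nd2, 9462 for mt-Nd3, 15067 for mt-Nd4l, 230933 for mt-Nd4, 107183 for mt-Nd5 and 119198 for mt-Nd6. It was likewise apart for mt-Cytb of complex III at 741600 FPKM. In complex IV it had 874777 FPKM for mt-Co1, 229203 for mt-Co2 and 189257 for mt-Co3, and in ATP synthase 2879 FPKM for mt-Atp8 and 223429 for mt-Atp6. Its MT share of reads was 76.9%, and the 6 mRNAs from mt-Co2 to mt-Nd4l took 11.8% of its MT reads.

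The remaining case was mt-Atp6 in WT cisplatin 4, at 11123 FPKM, against 109 to 1748 FPKM in the other 3 WT cisplatin libraries. No cause of these values was tested.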

How the results depend on the processing

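The count of MT genes called was 0 in all 80 fits without 1 library and all 54 other alternative fits. The median of the 13 mRNAs moved beyond the spread of replicates once, to 0.60 for BdP against WT under cisplatin without the 3 libraries. That spread included the 3 libraries and was wide. The mean log2 mRNA level had an SD of 4.34 in WT PBS and 2.19 in WT cisplatin tumours. In BdP cisplatin and BdP PBS tumours the SD was 0.47 and 0.50. A change of sign, such as -1.61 to 0.31 for BdP against WT under PBS, therefore did not count as a move. The range of the median over the fits without 1 library was -1.60 to 1.16 for cisplatin in WT, -0.48 to -0.04 for cisplatin in BdP, -2.43 to 0.31 for BdP against WT under PBS, -1.68 to -0.34 under cisplatin and -1.43 to 1.38 for the interaction. Of mt-Co1, mt-Nd6, mt-Co2 and mt-Rnr1, 26 of 320 values without 1 library and 31 of 216 others changed sign. Without the 3 libraries they were 0.27, 0.31, 0.056 and 0.074 for BdP against WT under PBS and 0.46, 0.69, 0.43 and 0.72 under cisplatin. For cisplatin in WT, TPM gave 0.33, 0.029, 0.37 and 0.046 for the 4 genes, scaling by total reads 0.031 for mt-Co1 and 0.071 for mt-Co2, scaling by genes not on MT 0.0053 for mt-Co2, and array weights (0.158 for WT PBS 1) 0.69, 0.57 and 1.23 for mt-Co1, mt-Nd6 and mt-Co2. The median of all genes there was 0.65 with TPM, 0.41 by total reads, 0.41 by genes not on MT and -0.0070 with array weights. Whether such shifts account for the changes of sign was not tested. For cisplatin in BdP, mt-Nd6 was 0.035 with TPM, 0.019 scaled by genes not on MT and 0.0013 by total reads, and mt-Rnr1 was -0.052 with array weights. In the interaction mt-Co1 and mt-Co2 were -0.52 and -0.53 with TPM, -0.17 and -0.19 scaled by genes not on MT, -0.25 and -0.27 by total reads, and -0.89 and -1.64 with array weights, which also gave -0.61 for mt-Nd6. Leaving out 1 library gave, for cisplatin in WT, -1.37 to 1.14 for mt-Co1, -1.70 to 1.05 for mt-Nd6, -1.80 to 2.04 for mt-Co2 and -1.72 to 0.44 for mt-Rnr1. For cisplatin in BdP it gave -0.12 to 0.080 for mt-Nd6, -0.70 to 0.21 for mt-Co2 and -0.24 to 0.31 for mt-Rnr1. For BdP against WT it gave -2.24 to 0.27, -2.44 to 0.31, -3.79 to 0.056 and -2.08 to 0.074 for the 4 genes under PBS and -0.76 to 0.26 for mt-Rnr1 under cisplatin. For the interaction it gave -1.38 to 1.13, -1.07 to 1.68, -2.26 to 1.58 and -0.34 to 1.81.

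As a share of summed FPKM, where longer genes weigh less, the median MT share was 6.68% in BdP cisplatin and 7.12% in BdP PBS tumours. It was 14.3% in WT cisplatin and 6.39% in WT PBS tumours. As a share of reads the 4 medians were 3.23%, 3.57%, 7.28% and 3.33% in the same order. The median log2 ratio of rRNA to mRNA reads was -3.42, -3.85, -4.59 and -4.14 in that order of groups. It was -4.23, -4.71, -5.55 and -5.23 without mt-Rnr1, and -4.64, -5.01, -5.63 and -5.07 without mt-Rnr2. With both rRNAs but without the 3 libraries it was -3.79 in WT cisplatin and -3.83 in WT PBS tumours. Relative to mt-Nd1, the median log2 level of the 6 mRNAs from mt-Co2 to mt-Nd4l was -5.83, -6.03, -5.44 and -5.90 in BdP cisplatin, BdP PBS, WT cisplatin and WT PBS tumours. Relative to the mean of the 13 mRNAs it was -2.79, -3.04, -2.56 and -2.76. The count of genes called over all genes for BdP against WT under PBS was 122, against 3 scaled by total reads, 5 scaled by genes not on MT, 6 with TPM, 3 on the groups compared alone, 56 with no filter and 176 with array weights. Under cisplatin it was 132, against 26, 38, 21, 251, 106 and 943 in the same order. The causes of these changes were not tested.

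Correlations of same-numbered libraries ran from -0.61 to 0.42, and the same number was the best match in 1 or 2 of 4 pairs per contrast. At 4 libraries per group these values cannot decide whether same-numbered tumours shared a litter, day or batch, which the labels do not say. With the replicate number as a block 0 MT genes were called, the mRNA medians were -0.77, -0.23, -1.61, -1.11 and 0.51, and 81 and 80 genes of all were called for BdP against WT under PBS and under cisplatin. The interaction could not be fitted on the groups compared alone, since it uses all 4. Depth limits the tRNAs, which hold few reads outside WT PBS 1, and nuclear genes in WT PBS 1.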
